A study of Mus musculus with 15 samples.

Results

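The olfactory receptor genes (Olfr) and the vomeronasal receptor genes of families 1 and 2 (Vmn1r and Vmn2r) were examined in mouse sperm DNA. A CpG was counted as a receptor CpG when it lay inside the RefSeq span of a gene of these names in build mm10, or within 2 kb of that span. Of 204492 CpGs in the data 305 met the rule, and they belonged to 169 of 1787 annotated receptor genes. The libraries came from sperm of male C57BL/6 mice of generation G1, of which 7 libraries are labelled Control and 8 PR, for protein restricted. No transgene or deletion is named for either group, and neither the age of the mice nor whether they or a parent ate the diet is given in the labels. Nothing there ties libraries to single mice, litters or batches, so any p-value measures only the spread between these libraries. The replicate numbers used here follow the order of deposition and pair nothing. The files hold methylation and no expression, so that the cells are sperm rests on the labels.

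Olfactory receptors are odorant-binding membrane proteins of the nasal epithelium, each neuron of which expresses a single receptor allele. Vomeronasal receptors of both families serve the vomeronasal organ, where many of them detect pheromones and other animal scents. The genes lie in long tandem clusters with many pseudogenes, in sequence that is poor in CpGs. Methylation of a CpG here is the percentage of reads that kept an unconverted cytosine after bisulfite treatment. In pooled sperm DNA an intermediate percentage cannot tell cells that differ apart from copies that differ, and reads from near-identical receptor genes may have been placed on the wrong copy.

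An annotated start to measure from was available for 217 of the 305 receptor CpGs. Of these only 4 lay in a RefSeq promoter window, the 250 bases before and 50 bases after an annotated start. These windows are shown because they give the letters around the only receptor CpGs so close to an annotated start. They read 5′ to 3′ on the gene's strand (RefSeq, GRCm38.p6), with the measured CpG in capitals. In all 4 the 50 bases after the start open with atg. The annotated start may thus be a start codon rather than the start of transcription, which was not examined. The windows are chr2:36421150-36421449 on the + strand for Olfr339, chr7:104597130-104597429 on the - strand for Olfr655, chr11:73907441-73907740 on the - strand for Olfr395, and chr17:19773113-19773412 on the + strand for Vmn2r103.
Olfr339: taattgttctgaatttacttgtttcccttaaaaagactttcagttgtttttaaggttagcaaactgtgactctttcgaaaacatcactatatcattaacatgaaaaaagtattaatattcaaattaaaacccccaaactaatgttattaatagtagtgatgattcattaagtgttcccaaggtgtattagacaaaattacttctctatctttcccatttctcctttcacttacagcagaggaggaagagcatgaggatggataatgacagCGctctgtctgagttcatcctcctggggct
Olfr655: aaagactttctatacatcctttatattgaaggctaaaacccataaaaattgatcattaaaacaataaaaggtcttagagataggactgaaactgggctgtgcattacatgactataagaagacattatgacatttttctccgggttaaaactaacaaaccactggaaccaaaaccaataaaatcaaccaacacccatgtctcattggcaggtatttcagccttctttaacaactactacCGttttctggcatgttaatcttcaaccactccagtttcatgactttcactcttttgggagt
Olfr395: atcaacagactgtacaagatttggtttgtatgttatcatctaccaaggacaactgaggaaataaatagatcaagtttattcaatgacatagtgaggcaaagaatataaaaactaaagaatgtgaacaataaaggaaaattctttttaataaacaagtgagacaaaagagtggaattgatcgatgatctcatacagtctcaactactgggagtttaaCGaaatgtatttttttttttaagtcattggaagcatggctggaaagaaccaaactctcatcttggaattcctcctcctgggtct
Vmn2r103: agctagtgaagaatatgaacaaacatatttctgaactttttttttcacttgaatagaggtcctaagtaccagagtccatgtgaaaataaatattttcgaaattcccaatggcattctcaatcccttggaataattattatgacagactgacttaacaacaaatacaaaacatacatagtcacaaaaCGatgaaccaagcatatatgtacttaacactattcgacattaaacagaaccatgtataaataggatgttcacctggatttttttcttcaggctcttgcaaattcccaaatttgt

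The measured CpG stands at base 271 of the Olfr339 window, 240 of the Olfr655 window, 217 of the Olfr395 window and 187 of the Vmn2r103 window. At Olfr655 and Olfr395 the measured CpGs were highly methylated, at a mean over 15 libraries of 95.5% and 94.7%. At Olfr339 the mean was 84.4%, and at Vmn2r103, a family 2 vomeronasal receptor, it was 58.2%. Vmn2r103 ranged from 51.5% to 74.1% in Control libraries (median 58.1%) and from 46.5% to 69.6% in PR libraries (median 56.4%). The diets overlapped over most of that range. Olfr339 ranged from 77.8% to 94.0% in Control (median 86.2%) and from 75.4% to 92.3% in PR (median 81.9%), again with overlap.

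Receptor promoter windows, as set by the annotated start, seldom held the cutting site of the assay. Reduced representation bisulfite sequencing cuts DNA with MspI at CCGG and sequences short fragments, and CCGG was found in 5.83% of 1270 receptor promoter windows against 52.8% of all 32851 windows (a palindrome, the same on both strands). The share was 4.96% for Olfr, 7.80% for Vmn1r and 9.40% for Vmn2r windows. Of the 4 windows shown, Olfr655 alone holds a CCGG, starting at base 140. Receptor windows held a median of 1 CG against 7 in all windows, and 30.9% of them held none.

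Coverage of the families was uneven. Listed CpGs were found at 118 of 1428 Olfr genes (8.26%), 15 of 233 Vmn1r genes (6.44%) and 36 of 126 Vmn2r genes (28.6%), whereas 41.6% of all annotated genes had a listed CpG. Vmn2r spans are long, and 71 of the 305 receptor CpGs belonged to them, 23 to Vmn1r and 211 to Olfr. Of the receptor CpGs 160 lay inside a receptor span and 145 only in a flank. Of these CpGs 8 belonged to more than 1 receptor gene, and 31 also lay in or within 2 kb of a gene that is not a receptor. A single CpG was all that 96 of the 169 genes had.

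Sequencing depth set the precision. Read counts summed over all listed CpGs ran from 6650912 to 11841657 per library, those over receptor CpGs from 8325 to 15976, and the median coverage of a receptor CpG from 25 to 49 reads. No position in the data has fewer than 11 methylated reads in any library. A CpG of low methylation is therefore listed only where it is deep.

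The listed receptor CpGs were methylated in sperm, with a wider tail of partly methylated positions than all listed CpGs. Positions with few or no methylated reads are absent from both sets. The comparison therefore holds for listed CpGs only and does not describe receptor genes or sperm DNA at large. Averaged over libraries, the mean was 91.2% for receptor CpGs and 95.3% for all listed CpGs, with medians of 97.1% and 98.2%. A level under 90% was found at 75 of 305 receptor CpGs (24.6%), against 10.3% of all CpGs, 8.09% of CpGs in or near other genes and 14.7% of CpGs away from all genes. These are descriptions of a chosen set and were not tested. The families stood in the order Vmn1r, Vmn2r, Olfr. Their means were 86.5%, 89.1% and 92.5%, and 43.5%, 32.4% and 19.9% of their CpGs were under 90%. The library means of Vmn1r (84.4% to 88.4%) and Vmn2r (86.7% to 90.9%) overlapped, while those of Olfr were at 91.7% or more in each of the 15 libraries.

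**Figure D1:**
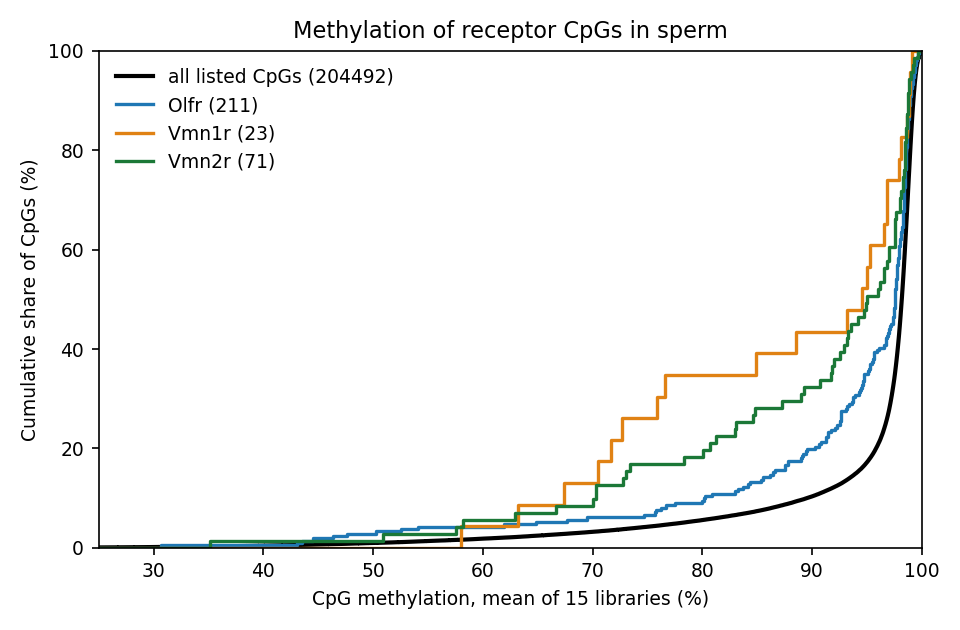
Cumulative share of CpGs (vertical axis, percent) at or below a methylation level (horizontal axis, percent, mean of 15 libraries) for Olfr, Vmn1r, Vmn2r and all listed CpGs. At 90% methylation the curves stand at 19.9%, 43.5%, 32.4% and 10.3%.

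The share of partly methylated CpGs was also read by coverage, spacing and gene type, splits chosen after the levels were seen. Under a mean of 30 reads, 17.7% of 96 receptor CpGs were below 90% against 5.59% of all CpGs at that coverage. From 30 to 40 reads the shares were 16.8% of 95 and 10.7%, and at 40 reads or more 36.8% of 114 and 17.1%. Isolated CpGs, with no other listed CpG within 100 bp, made up 43.9% of receptor CpGs and 25.1% of all CpGs. Among isolated CpGs 27.6% of the receptor and 11.5% of all positions were below 90%, and among the others 22.2% and 9.97%. Over all receptor CpGs the mean was 91.3% inside spans and 91.2% in flanks, with 26.9% and 22.1% below 90%. Of the 7 receptor CpGs under 50%, 6 lay only in a flank. Of the families, Vmn1r alone is given separately here. The Vmn1r CpGs inside a span, at Vmn1r69, Vmn1r173 and Vmn1r174, ran from 63.2% to 84.9%, and those in flanks from 58.0% to 99.1%. CpGs of receptor pseudogenes (52) averaged 87.1%, with 40.4% below 90%, and those of protein-coding receptors (260, with some CpGs in both sets) averaged 92.3%, with 20.8% below 90%. The medians were 94.3% and 97.5%. The 4 pseudogene CpGs under 50% all lay at Olfr260-ps1 or Olfr1473-ps1.

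At the low end, 24 of 169 receptor genes (14.2%) had a mean under 80%, against 4.95% of all genes. They were 10 Olfr, 5 Vmn1r and 9 Vmn2r genes. The lowest was Olfr6, an odorant receptor gene (chromosome 7, 106955984 to 106956934), with 1 CpG at 106955056, in its downstream flank. It had 20.0% to 39.2% in Control libraries (median 30.6%) and 25% to 41.9% in PR libraries (median 29.3%), at a mean coverage of 84.3 reads. The library PR 5 was the highest, apart from the other PR libraries at 25% to 30.4%.

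Next was Vmn2r99 (chromosome 17, 19362135 to 19394590), whose CpG at 19377143 lies inside the span. It ranged from 24.4% to 42.9% in Control (median 32.1%) and from 24.1% to 51.9% in PR (median 36.7%). The pseudogene Olfr260-ps1 followed on chromosome 7, with 3 CpGs just outside its span, at 43.1%, 43.5% and 44.5%. Its library means ran from 31.1% to 49.7% in Control (median 41.97%) and from 37.9% to 55.8% in PR (median 43.9%). None of these 3 genes exceeded 55.8% in any library.

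Olfr895 (chromosome 9, 38268001 to 38269753) had 1 CpG, at 38270911 in its downstream flank. Control libraries ran from 28.6% to 48.1% (median 46.2%) and PR libraries from 42.5% to 64.6% (median 48.6%). The diets overlapped, though all 8 PR libraries exceeded the Control mean of 41.4%. The remaining 6 of the 10 lowest genes had means of 50.9% (Vmn2r29), 52.6% (Olfr342), 55.2% (Olfr1473-ps1), 58.2% (Vmn2r103), 62.7% (Vmn1r64) and 62.9% (Vmn2r97). Neighbours in the order of the 10 differed by less than the SD of either gene in either diet, except Vmn2r99 and Olfr260-ps1, whose gap exceeded 3 of those 4 SDs.

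**Figure D2:**
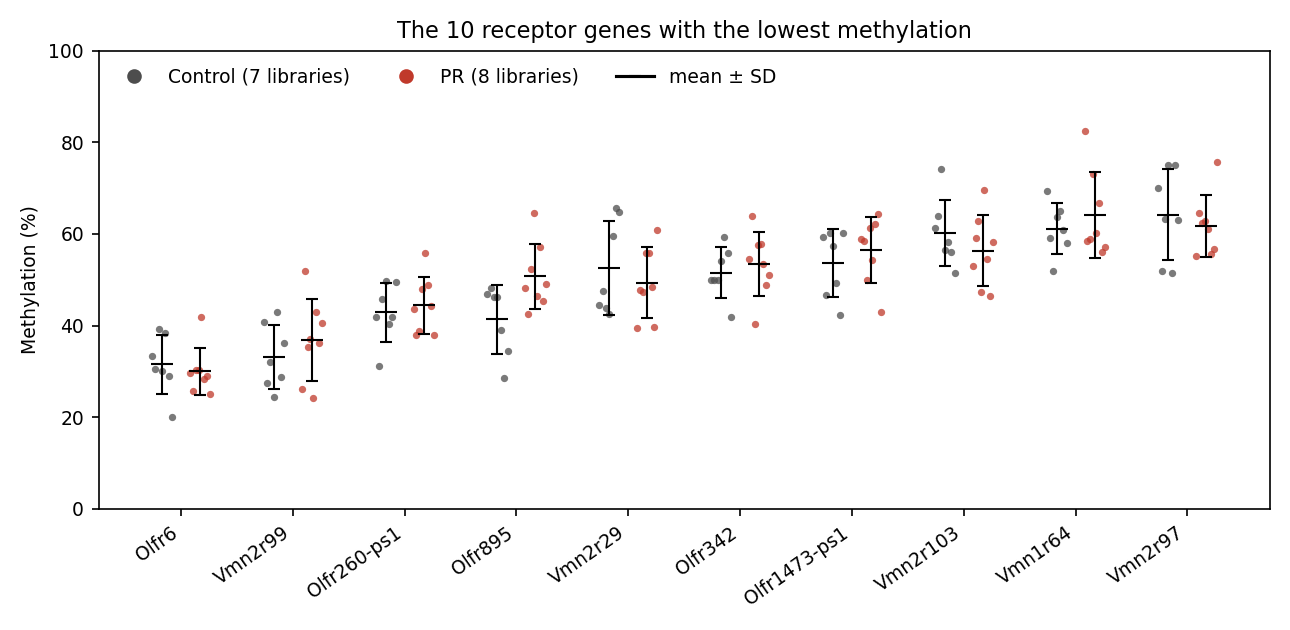
Methylation (vertical axis, percent, from 0 to 100) of the 10 receptor genes with the lowest mean, each point a library, with mean and SD bars for Control (7) and PR (8). The means rise from 30.7% at Olfr6 to 62.9% at Vmn2r97, and the points of the diets overlap in every gene.

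The genes with most listed CpGs show how levels vary along a receptor. Vmn2r87 had 10 CpGs within its span (chromosome 10, 130471821 to 130497379), packed between 130485655 and 130485875. Their means ran from 73.4% at 130485807 to 98.6% at 130485828, the next listed CpG. Olfr324 (chromosome 11, 58597345 to 58598466) had 7 CpGs, 5 in its span and 2 in the flank. In the span its CpG at 58597669 was at 75.7%, while 4 others were between 89.4% and 95.9%, and the flank CpGs were at 98.8% and 99.4%. By contrast, Olfr1033 (8 CpGs), Vmn2r24 (7), Olfr71 (6), Olfr524 (5), Olfr552 (5) and Vmn1r88 (5) had no CpG under 92.6%. All 5 CpGs of Olfr524, all 5 of Vmn1r88, all 4 of Olfr1401-ps1 and 3 of Vmn2r24 also lay in or near a gene that is not a receptor. With 4 CpGs each, 6 genes were tied. In Olfr1292-ps1, Olfr1401-ps1, Vmn2r117 and Olfr553 none of these was under 92.5%, while the lowest was at 78.4% in Vmn2r35 and 84.8% in Vmn2r53.

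The spread between libraries was close to counting noise at most receptor CpGs. The dispersion, which is 1 when libraries of a diet differ by counting noise alone, had a median of 1.01 over receptor CpGs and 0.955 over all CpGs. It was above 2 at 15 receptor CpGs (4.92%) and at 2.86% of all CpGs. Among genes with at least 2 CpGs the dispersion of summed reads was highest at Olfr205 (4.50), Vmn2r53 (4.28), Olfr1473-ps1 (2.95), Olfr1509 (2.74) and Olfr650-ps1 (2.72). A read that covers several CpGs counts more than once in these sums. A gene value above 1 therefore need not be a difference between libraries. The single CpGs had lower dispersions, from 1.54 to 2.60 at Olfr205, 1.04 to 2.20 at Vmn2r53, 1.30 to 1.83 at Olfr1473-ps1 and 1.55 to 1.75 at Olfr1509. At Olfr205 the means ran from 86.4% to 100% in Control and from 77.3% to 100% in PR, with PR 2 lowest. At Vmn2r53 they ran from 87.3% to 99.0% in Control and from 77.1% to 94.7% in PR. There too PR 2 (77.1%) was the lowest library, followed by PR 7 (82.9%). What sets these libraries apart at such genes was not tested.

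The study's comparison is PR against Control. Olfr CpGs ranged over libraries from 91.7% to 92.7% in Control (median 92.4%) and from 91.9% to 93.3% in PR (median 92.7%), or 92.3% ± 0.347 (SD, n = 7) and 92.6% ± 0.426 (SD, n = 8). PR was 0.369 points higher, which is above the Control SD and below the PR SD, and 7 of 8 PR libraries exceeded the Control mean. Vmn1r CpGs ranged from 84.8% to 88.4% in Control and from 84.4% to 88.4% in PR, and their means of 86.5% ± 1.34 (SD, n = 7) and 86.5% ± 1.51 (SD, n = 8) differed by -0.0178 points. Vmn2r CpGs ranged from 88.2% to 90.9% in Control and from 86.7% to 89.9% in PR, with means of 89.4% ± 1.03 (SD, n = 7) and 88.8% ± 1.10 (SD, n = 8). That difference of -0.596 points was below the SD of either diet. The libraries of the diets overlapped in all 3 families, and no p is given for these means, because the families are sets chosen with earlier results known.

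**Figure D3:**
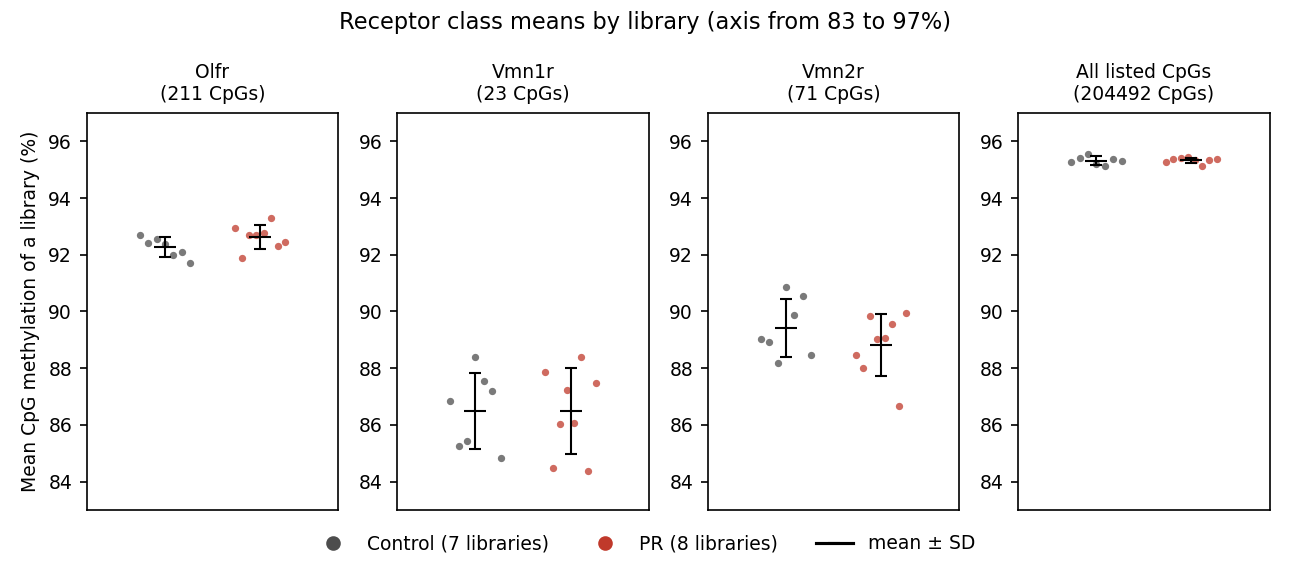
Mean CpG methylation of each library (vertical axis, percent, shown from 83 to 97) for Olfr, Vmn1r, Vmn2r and all listed CpGs, with mean and SD bars for Control (7) and PR (8). Olfr libraries lie between 91.7% and 93.3%, Vmn1r between 84.4% and 88.4% and Vmn2r between 86.7% and 90.9%, with the diets overlapping.

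The Vmn1r and Vmn2r differences depended on the region used, and the other regions held fewer CpGs. With gene spans alone the Vmn1r difference was -2.66 points, and within 1 kb of gene ends the Vmn2r difference was -1.82 points. The Vmn1r spans with a CpG were those of Vmn1r69, Vmn1r173 and Vmn1r174 alone. Their CpGs differed by -7.03 (Vmn1r69) to 1.34 points (Vmn1r173). Over all 305 receptor CpGs the difference was 0.115 points, with 155 CpGs higher and 150 lower in PR and a median of 0.0298 points. Over all listed CpGs 101894 were higher and 101724 lower, with a median difference of 0. Counting noise alone would give library means an SD of about 0.274 points for Olfr, 1.08 for Vmn1r and 0.572 for Vmn2r if every CpG were independent. Neighbouring CpGs covered by the same reads are not, so these SDs may be too small.

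No receptor CpG passed the test. Each CpG of the whole table was fitted with a quasi-binomial logistic model of methylated and total reads on diet, and 0 of 305 receptor CpGs had a Benjamini-Hochberg adjusted p under 0.05 (0% of 204492 CpGs did). With limma 0 passed, whether fitted to percentages or to logits (pseudocount 1 or 0.1), where the share of all CpGs was 0%, 0% and 0.00489%. At an unadjusted p under 0.05 there were 5 receptor CpGs (1.64%) where 3.79% of all CpGs were found, so that the share was below the background. All 5 were Olfr CpGs that were higher in PR, where the background in that direction is 1.89%, and 0 were lower, where it is 1.9%. The count of 5 was not steady: it was 8 without Control 2, 9 without Control 4, 10 without Control 5, 8 without Control 6 and 8 without PR 2. Over all 15 omissions the receptor share was 1.31% to 3.28%, against 3.63% to 3.76% of all CpGs in the same fits. limma on percentages gave 10, where 4.56% of all CpGs were found. With at least 20 reads in every library 3 of 162 receptor CpGs were left, where 3.47% of all such CpGs were found.

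These 5 CpGs differed by little. CpGs in Olfr524 (chromosome 7, 140202083), Olfr69 (chromosome 7, 103767728), near Olfr213 (chromosome 6, 116539901) and near Olfr269-ps1 (chromosome 4, 43768614) were at 100% in each PR library. In Control they reached 100% too in some libraries, with lowest values of 91.7%, 93.5%, 92.6% and 91.3%. Near Olfr462 the CpG at 87890857 on chromosome 11 had a Control mean of 97.4% ± 3.39 (SD, n = 7) against 99.7% ± 0.956 (SD, n = 8) for PR. The Olfr269-ps1 CpG is shared with Olfr159, and the Olfr524 CpG with a gene that is not a receptor. Their differences lay between 1.76 and 2.28 points. On the lower side, none of the 5 with the smallest p reached an unadjusted p of 0.05. They lay at Vmn2r53 (12599532, -5.89 points), Vmn1r69 (10580750, -7.03 points), Olfr1234 (89364858, -1.22 points), Olfr324 (58600143, -1.18 points) and Olfr339 (36421420, -3.90 points).

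A difference of at least 10 points was found at 1 receptor CpG, and at 0.121% of all CpGs. It is at 52451011 on chromosome 14, in Olfr1509 and also in or near a gene that is not a receptor. Control libraries ran from 31.4% to 59.8% there (median 53.2%) and PR libraries from 40.6% to 70.7% (median 59.2%). The groups overlapped widely. The difference of 10.4 points had an unadjusted p of 0.1004 in the quasi-binomial test. At 0 of the 305 receptor CpGs did the diets not overlap at all, against 0.0191% of all CpGs.

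**Figure D4:**
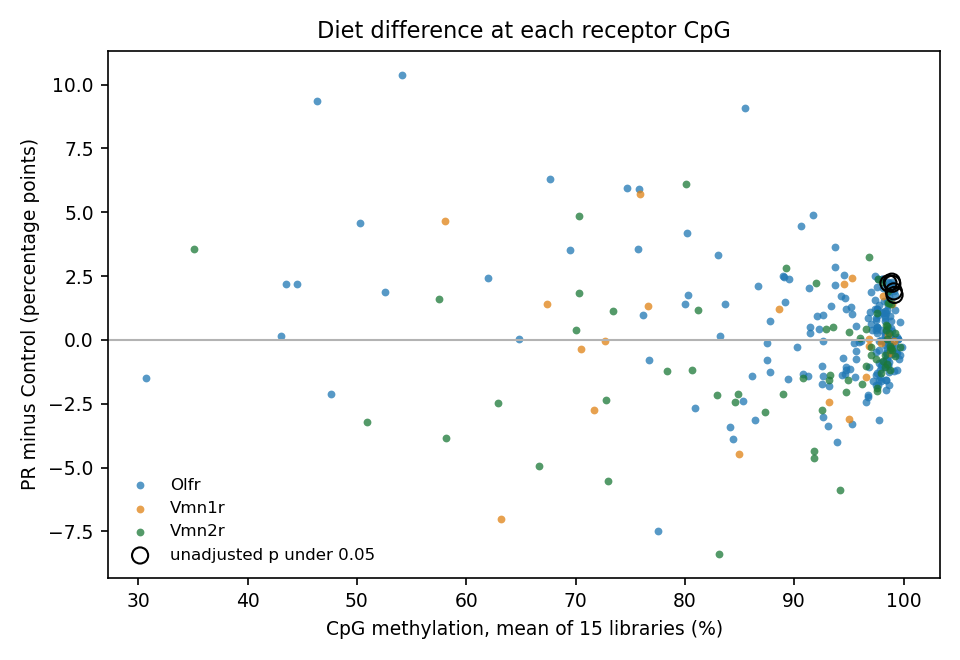
PR minus Control (vertical axis, percentage points) against mean methylation (horizontal axis, percent) for each of 305 receptor CpGs, coloured by family, with circles on the 5 at an unadjusted p under 0.05. Differences run from -8.38 to 10.4 points, and the circled CpGs all lie near full methylation.

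No receptor gene passed either. With reads summed over each gene's CpGs and 20804 genes tested, 0 of 169 receptor genes passed at an adjusted p of 0.05 (0% of all genes did), and 0 had an unadjusted p under 0.05, where 3.06% of all genes did (1.61% higher and 1.45% lower in PR). That count was 1 to 6 when any library but PR 4 was left out, and was 6 without PR 2. The receptor share was then 0% to 3.55%, against 2.83% to 3.23% of all genes in the same fits. An exact permutation test on gene means gave 8 receptor genes (4.73%) at an unadjusted p under 0.05 and 4.75% of all genes. limma on gene means gave 11 of the 169 receptor genes, a share above the 4.81% of all genes. In direction, 88 receptor genes were higher and 81 lower in PR, with a median difference of 0.0215 points against -0.00196 over all genes. Of the Olfr genes 66 of 118 were higher, and of the Vmn2r genes 22 of 36 were lower, with medians of 0.0766 and -0.632 points. Over all 20804 genes 10366 were higher and 10422 lower. A single CpG was all that 62 of these Olfr and 24 of these Vmn2r genes had, and the family directions were not tested.

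The receptor genes with the smallest p on the higher side were Olfr1228, Olfr895, Olfr213, Olfr656 and Olfr431-ps1. Olfr1228 was at 96.4% ± 2.01 (SD, n = 7) and 98.8% ± 1.98 (SD, n = 8), with an exact permutation p of 0.0395. Olfr895, described above, had the largest difference among receptor genes, 9.35 points, at 41.4% ± 7.54 (SD, n = 7) in Control against 50.7% ± 7.15 (SD, n = 8), with an exact permutation p of 0.0258. Olfr656 differed by 4.16 points, Olfr213 by 1.93 and Olfr431-ps1 by 1.86, the last 2 close to full methylation. The CpG of Olfr431-ps1 is shared with Olfr432. The exact permutation p-values given here are unadjusted. Each of these genes had an adjusted p of 1 in the quasi-binomial test.

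On the lower side stood Vmn1r69, Olfr1234, Vmn2r35, Olfr54 and Olfr339. Vmn1r69 (chromosome 7, 10579756 to 10581487) ran from 53.4% to 80.9% in Control (median 65.8%) and from 55.7% to 71.2% in PR (median 58.1%). Its means of 67.0% ± 8.85 (SD, n = 7) and 59.9% ± 5.51 (SD, n = 8) gave the lowest difference of any receptor gene, -7.03 points (exact permutation p = 0.0845). Vmn2r35 was at 88.8% ± 2.96 (SD, n = 7) and 85.6% ± 3.71 (SD, n = 8). At Olfr54 all 8 PR libraries were below the Control mean, with means of 99.4% ± 1.01 (SD, n = 7) against 97.8% ± 1.14 (SD, n = 8). Its unadjusted p was 0.00793 in the exact permutation test and 0.0899 in the quasi-binomial test. Each of these 5 genes also had an adjusted p of 1 in the quasi-binomial test, and at no receptor gene were the diets apart in every library (0.0192% of all genes were).

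Receptor genes were chained into 87 genomic clusters, joined where spans lay at most 1 Mb apart, and 7 clusters had at least 10 listed CpGs. Their means ran from 85.2% to 97.1%. The highest was the Vmn2r cluster on chromosome 6 (123308333 to 124231784), from Vmn2r19 to Vmn2r27, with 12 CpGs at 97.2% ± 0.900 (SD, n = 7) and 97.1% ± 0.721 (SD, n = 8). The lowest was a mixed cluster on chromosome 7 (5146490 to 13220289), from Vmn1r55 to Vmn1r89, that holds 35 Vmn1r, 29 Vmn2r and 9 Olfr genes. Its 29 CpGs include those of Vmn1r64, Vmn1r69, Vmn2r29, Vmn2r35 and Vmn2r53, and 12 of them were below 90%. Vmn2r genes thus occurred in both the highest and the lowest of the 7 clusters.

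In the mixed chromosome 7 cluster Control libraries ran from 84.1% to 89.3% (median 85.3%) and PR libraries from 81.1% to 86.2% (median 85.3%). Their means of 86.1% ± 1.95 (SD, n = 7) and 84.5% ± 2.08 (SD, n = 8) differed by -1.65 points. PR 2 and PR 7, at 81.1% and 81.2%, stood below the other PR libraries, which were at 84.9% or more. Without this pair, a choice made after their values were seen, the difference was -0.555 points. The Control side turned most on Control 4, the highest library, without which it was -1.12 points. Over all receptor CpGs PR 2 and PR 7 were among the lowest 3 libraries, at 90.4% each, with Control 7 at the same level. That set includes the CpGs of this cluster, so it is not a separate observation. Over all listed CpGs PR 2 and PR 7 were at 95.4% and 95.3%. The part of these libraries in the difference was not otherwise tested.

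Of the 7, the clusters made up of Olfr genes alone had means from 91.6% to 94.1%. The largest, on chromosome 2 (85330967 to 90401674, Olfr987 to Olfr1274), had 32 listed CpGs for its 293 genes, at 93.1% ± 0.742 (SD, n = 7) and 93.5% ± 0.519 (SD, n = 8). The chromosome 7 cluster from Olfr543 to Olfr692 (102476773 to 105369317) had 36 CpGs at 91.7% ± 0.585 (SD, n = 7) and 92.1% ± 0.782 (SD, n = 8). On chromosome 9 (37711348 to 40188094, Olfr160 to Olfr986) 15 CpGs, Olfr895 among them, were at 91.0% ± 1.81 (SD, n = 7) and 92.1% ± 1.26 (SD, n = 8). The clusters on chromosome 10, from Olfr9 to Vmn2r87, where 10 of 20 CpGs are those of Vmn2r87, and chromosome 11, from Olfr30 to Olfr225, differed by -0.275 and 0.377 points. In all 7 clusters the diets overlapped, and 4 had a higher and 3 a lower mean in PR.

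**Figure D5:**
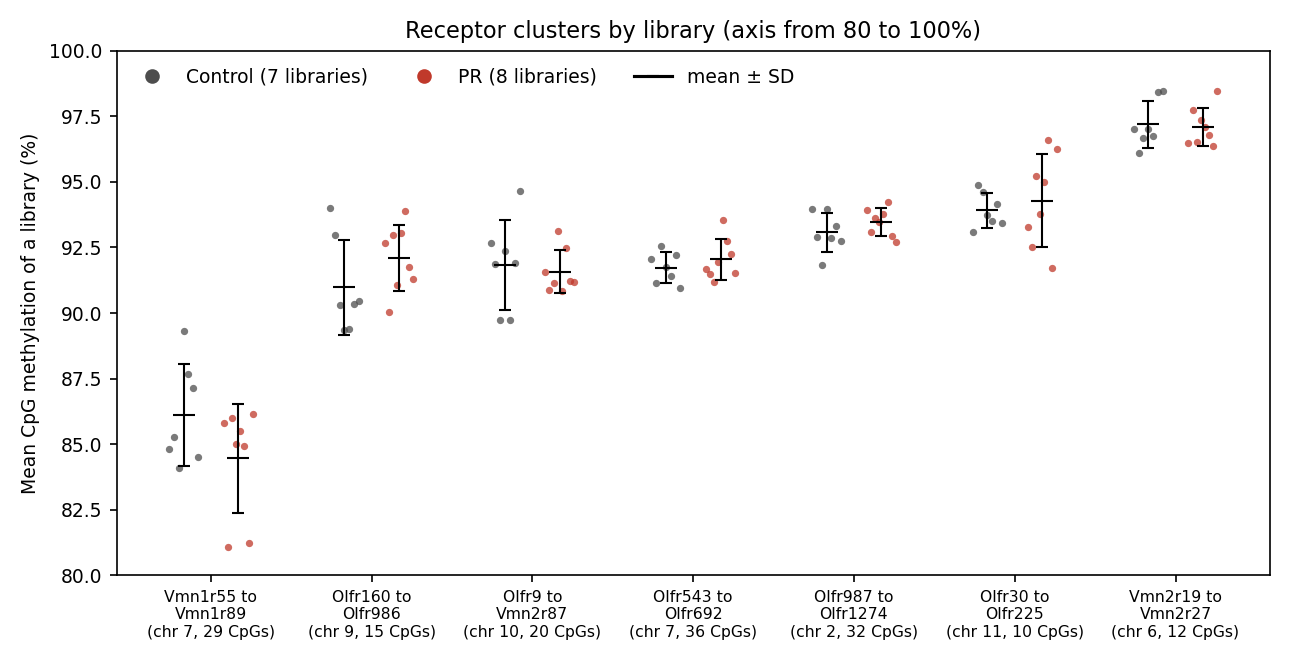
Mean CpG methylation of each library (vertical axis, percent, shown from 80 to 100) in the 7 receptor clusters with at least 10 listed CpGs, ordered by mean, with mean and SD bars for Control (7) and PR (8). The cluster from Vmn1r55 to Vmn1r89 is lowest, with 2 PR libraries near 81%, and the Vmn2r19 to Vmn2r27 cluster is highest.

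A mixed cluster on chromosome 17 of 14 Vmn1r and 23 Vmn2r genes, from Vmn2r90 to Vmn1r237 (17703941 to 21314886), had 9 listed CpGs and so fell under the minimum. It was singled out after its values were seen. Its 9 CpGs, each at a different Vmn2r gene and those of Vmn2r103 and Vmn2r104 in a flank, had a Control mean of 73.7% ± 2.21 (SD, n = 7) against 73.3% ± 3.002 (SD, n = 8) for PR. They ran from 35.1% at Vmn2r99 to 96.8% at Vmn2r100, with Vmn2r104 at 70.0% and Vmn2r109 at 70.4%. High and low members thus stood side by side in 1 cluster. Some Olfr clusters below the minimum were low too, though above this cluster's mean of 73.5%. They were at 74.9% over 6 CpGs on chromosome 2 (Olfr334-ps1 to Olfr368) and 78.3% over 8 CpGs on chromosome 19 (Olfr1417 to Olfr1505).

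Of 21 receptors with a well-described role 3 had a listed CpG. Olfr73, the eugenol receptor, had 3 CpGs in its flank, at 89.9% ± 2.46 (SD, n = 7) and 91.7% ± 4.12 (SD, n = 8). Vmn2r1 and Vmn2r4, of the vomeronasal subfamily that is co-expressed with other Vmn2r genes, had 1 CpG each inside the span. Vmn2r1 was at 97.1% ± 2.60 (SD, n = 7) and 96.1% ± 3.32 (SD, n = 8), and Vmn2r4 at 98.9% ± 2.08 (SD, n = 7) and 98.7% ± 2.72 (SD, n = 8). Olfr16, which has been linked to sperm chemotaxis, had no listed CpG and is not analysed here.

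A list of 46 other genes was compared in the same way. It holds signalling and control genes of chemosensory neurons, some of them broadly expressed such as Lbr and Cbx5, and the other chemoreceptor families. A listed CpG was found at 23, of which 3 were Taar and 1 a Tas receptor gene. Of these 0 passed, 0 had an unadjusted p under 0.05 (background 3.06%), and 14 were higher and 9 lower in PR, with a median difference of 0.0427 points. Their median level was 97.1%. The lowest were Taar5, a trace amine receptor, at 70.0% at its CpG, and Emx2, at 75.5% over 5 CpGs. Trpc2, the transduction channel of vomeronasal neurons, followed at 86.1% over 5 CpGs. Omp, the olfactory marker protein, was at 96.1% in Control and 97.9% in PR, with an exact permutation p of 0.150. Gnal and Adcy3, which encode the G protein subunit and the cyclase of odorant signalling, were at 98.5% and 98.2%.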

How the data were processed

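Reduced representation bisulfite libraries of sperm DNA (7 Control, 8 PR) were grouped by the diet in the labels. The deposited files give raw counts of methylated reads and of all reads per CpG, and are not normalized. Per the submitters' processing notes the tools were Bismark 0.7.12 and Bowtie2 2.1.0 and the build was mm10, with no roles stated. Trimming and filters: not given in the sources used here. Gene spans, starts and promoter sequences came from RefSeq (GRCm38.p6). Promoter windows matched 1265 of the 1787 receptor genes by symbol. Exons, introns and UTRs were not analysed here.

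Percent methylation is methylated over total counts. Class and gene values are means over CpGs of equal weight. The coverage minimum of 10 reads removed nothing. Each CpG, and each gene with reads summed over its span and 2 kb flanks, was fitted with a quasi-binomial logistic model (F test, 13 residual degrees of freedom, dispersion at least 1) with Benjamini-Hochberg adjustment over the whole table. Gene means were also tested with a two-sided exact permutation test over all 6435 splits, whose smallest p is 0.000155, and with limma 3.58.1 (R 4.3.3). Other steps used Python 3.11.15, numpy 2.4.6 and scipy 1.17.1, and the tests were tested on simulated data.

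The genes named are any that passed, the 5 with the smallest p in each direction, the 10 with most CpGs, the 10 lowest, the 5 with the largest dispersion among genes with at least 2 CpGs, those with a CpG in a promoter window, and listed receptors of known role. For single CpGs they are the 5 with the smallest p in each direction and the 5 lowest. The members and lists were chosen with earlier results of these data known. Alternatives covered the test, pseudocount, coverage minimum, region, weighting, title numbers and leaving out each library. No pair of the libraries had identical counts.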

Additional observations from a re-analysis of the deposited data

Results flagged for a closer look

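Of 98 groups of libraries examined (49 families, clusters and named genes in each diet), 11 held a highest or lowest library whose gap to the next was large for that group's spread. The threshold used is passed by about 1 in 20 groups by chance, a rate that does not apply to groups at the ceiling of 100%. At Olfr6 PR 5 was at 41.9%, where the other PR libraries were at 25% to 30.4%. At Vmn2r97 PR 8 was at 75.8%, against 55.2% to 64.6%. At Olfr395 Control 4 was at 90.2%, against 94.7% to 97.4%, and at Olfr552 Control 4 was at 95.4%, against 98.2% to 100%. At Olfr1292-ps1 PR 5 was at 91.7%, against 96.2% to 98.8%, and at Olfr54 PR 4 was at 95.2%, against 97.1% to 98.5%. At Olfr1228 PR 6 was at 94.4%, against 97.7% to 100%. At Vmn2r4 Control 1 was at 94.6%, against 97.7% to 100%, and PR 4 at 92.5%, against 96.9% to 100%. At Olfr1234 Control 5 was at 98.2% and at Olfr213 PR 2 at 97.9%, where the other libraries of the diet were all at 100%.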

How the results depend on the processing

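Receptor CpGs and receptor genes that passed remained at 0 under each alternative run, including limma, other regions and the omission of each library. The exact permutation test also passed 0 receptor genes, but it could hardly have passed any. Its smallest p is 0.000155, which adjustment over 20804 genes keeps above 0.05 unless many genes share it. No conclusion is drawn from that 0. Counts at an unadjusted p under 0.05 moved with the test. For CpGs the count of 5 was 10 with limma on percentages and 3 with a coverage minimum of 20 reads in every library, which keeps 162 of the 305 CpGs (4.56% and 3.47% of all CpGs tested in the same fits), and it ran from 4 to 10 when single libraries were left out (3.63% to 3.76% of all CpGs). For genes the count of 0 was 8 with the exact permutation test and 11 with limma (4.75% and 4.81% of all genes), and ran from 0 to 6 when single libraries were left out (2.83% to 3.23% of all genes); the cause was not tested. With gene spans alone the Vmn1r difference was -2.66 points, and within 1 kb of gene ends the Vmn2r difference was -1.82 points, both from fewer CpGs. Leaving out single libraries gave 0.273 to 0.475 points for Olfr, -0.296 to 0.298 for Vmn1r, -0.800 to -0.287 for Vmn2r and -0.00534 (without Control 7) to 0.242 for all receptors. The last difference was -0.135 with gene spans alone and -0.00152 with consecutive title numbers averaged to 3 Control and 4 PR values. No paired analysis was possible because the labels give no replicate numbers shared by the diets. Median depths of 25 to 49 reads per library at receptor CpGs and the list's minimum of 11 methylated reads limit what could be seen, and most receptor genes rest on 1 CpG.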
